A study of Mus musculus with 6 samples.

Results

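The 10 genes of cartilage matrix and cartilage maturation described here were measured in sorted mouse skeletal stem cells: Cnmd, Panx3, Acan, Hapln1, Matn1, Matn3, Snorc, Ucma, Epyc and Prg4. They were taken by symbol from a table of 26130 genes, all 10 were present, and all 10 passed the low-count filter in both comparisons. Cnmd and Panx3 were chosen by their high counts in the injured libraries, so their difference between injured and non-injured cells is a description and carries no test. No measured value is named for the choice of the other 8. The cells came from the Achilles tendon-to-bone interface of C57BL/6 mice, the graded and partly fibrocartilaginous tissue that anchors tendon in bone, at day 7 after surgery. The 3 groups were sham control (n = 2), uninjured (n = 1) and partial injury of the interface (n = 3). The description and column name of the uninjured library call it a sham, while its title and treatment label call it uninjured. It therefore formed its own group in the comparison with sham control and was pooled with the sham libraries in the comparison with all non-injured cells. Nothing in the labels says whether a library is a separate animal or a pool, and the p-values reflect only library-to-library spread, part of which may be technical.

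Cartilage owes its stiffness to aggrecan, a large proteoglycan that link protein fastens to hyaluronan, held within a network of collagen II, IX and XI fibrils. Matrilins bridge the fibrils to the proteoglycans, and smaller secreted proteins such as chondromodulin keep vessels out. As chondrocytes mature towards hypertrophy they switch on Indian hedgehog, pannexin 3 and collagen X, whereas cells at gliding surfaces of joints and tendons make lubricin, the product of Prg4.

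The libraries held from 37506188 to 51089267 counts and were made from 150 pg of RNA each, so a rare transcript may drop out or be amplified. The 2 sham libraries were unlike each other. In sham 1 erythroid markers made up 3.74% of counts, in sham 2 0.000106%, and neutrophil markers 0.851% and 0.00206%. Injured 1 was also rich in these markers (0.538% and 0.512%) and injured 3 was poor in them (0.000742% and 0.000424%). Of the genes used to sort these cells, Itgav and Cd200, which the sort retains, had counts in every library (Itgav 31.1 to 116 CPM, Cd200 31.0 to 160.2 CPM). Of those selected against, the endothelial gene Tek stood at 58.1, 0.580 and 61.7 CPM in sham 1, sham 2 and the uninjured library and at 9.28, 4.66 and 9.16 CPM in injured 1, 2 and 3, and Eng at 201, 0 and 25.5 against 66.1, 26.1 and 5.46 CPM. The leukocyte gene Ptprc stood at 9.95, 0 and 1.24 CPM against 24.8, 15.1 and 0 CPM, and Thy1 and Enpep at no more than 14.3 and 16.1 CPM in any library. CPM is the count divided by the TMM-scaled library size, on a common total. Osteoblast markers took 0.0367% to 0.391% of counts in injured libraries and 0.0417% to 0.529% in non-injured ones, with Phex at 0 in all but injured 3. The 7 tendon markers all had counts in every library and took 0.250% to 0.493% in injured and 0.312% to 0.561% in non-injured libraries. In bulk RNA, more cells of a type and more RNA per cell cannot be told apart.

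The sequences before the transcription start were read for the members with an entry in the RefSeq promoter table (build GRCm38.p6), 7 of 10; Panx3, Snorc and Prg4 have none there. Shown are the 250 bases before the start of Cnmd and Matn3, whose injured libraries all lay above the others, and of Hapln1, whose libraries overlapped. Cnmd lies at chr14:79637682-79662194 on the minus strand and its window at chr14:79662184-79662433. The Matn3 window is chr12:8947679-8947928 and that of Hapln1 chr13:89540386-89540635, both on the plus strand. Hapln1 itself lies at chr13:89540529-89611832. The windows of Cnmd and Hapln1 thus end inside the gene, because the start in the promoter table is not the gene's outermost base. Capitals mark matches on either strand to ACAANG or TGNGGT. These are looser than the letters recognised by SOX and by RUNX proteins, so a match need not be such a site.
Cnmd: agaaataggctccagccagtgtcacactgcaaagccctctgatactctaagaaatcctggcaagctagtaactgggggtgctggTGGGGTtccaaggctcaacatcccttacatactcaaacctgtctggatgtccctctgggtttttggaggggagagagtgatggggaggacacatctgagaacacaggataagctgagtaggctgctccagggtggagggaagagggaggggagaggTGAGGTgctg
Matn3: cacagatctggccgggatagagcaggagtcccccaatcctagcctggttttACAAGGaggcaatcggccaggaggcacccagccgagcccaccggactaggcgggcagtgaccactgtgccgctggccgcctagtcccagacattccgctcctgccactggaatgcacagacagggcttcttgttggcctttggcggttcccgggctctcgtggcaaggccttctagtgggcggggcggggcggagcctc
Hapln1: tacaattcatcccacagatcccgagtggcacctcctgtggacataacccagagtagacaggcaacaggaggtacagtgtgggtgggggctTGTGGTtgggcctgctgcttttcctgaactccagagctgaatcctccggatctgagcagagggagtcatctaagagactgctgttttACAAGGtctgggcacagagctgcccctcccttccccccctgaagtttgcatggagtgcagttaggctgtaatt
The Cnmd window holds 2 TGNGGT matches, TGGGGT and TGAGGT, the nearer beginning 10 bases before the start used, and 0 ACAANG matches. Matn3 has 1 ACAANG match, 199 bases before the start, and 0 TGNGGT matches, and Hapln1 has 1 of each. The nearer Cnmd match and the Hapln1 ACAANG match lie inside the outer bounds of their genes. Among the 7 members with a sequence, 4 held ACAANG and 5 held TGNGGT in at least 1 window, against 36.2% and 40.2% of 32536 windows of the same length; in Matn1 the matches overlap each other. TATAAA was found in 0 of the 7 and in 12.3% of all windows. Such short matches are common and are no evidence of binding.

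Cnmd encodes chondromodulin, a cartilage glycoprotein that inhibits vessel growth. It stood at 1.41 and 2.04 CPM in sham 1 and 2, at 4.09 CPM in the uninjured library, and at 311, 119 and 833 CPM in injured 1, 2 and 3. The lowest injured library was 29.0 times the highest non-injured one. Behind these levels were 52, 74 and 168 counts in the non-injured libraries and 7185 to 38886 in the injured ones. The mean was 421 ± 369 CPM (SD, n = 3) in injured and 1.72 ± 0.451 CPM (SD, n = 2) in sham control, a ratio of 244. Injured 3 had 7.02 times the level of injured 2, so the size of the difference varied widely although every injured library shared it.

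Panx3 encodes pannexin 3, a channel-forming membrane protein of maturing chondrocytes and osteoblasts, at chr9:37659902-37669222. Only 1, 22 and 7 counts were found in sham 1, sham 2 and the uninjured library, against 1499, 4564 and 12596 in injured 1, 2 and 3. As levels these are 0.0270, 0.607 and 0.170 CPM against 33.9, 75.4 and 269.7 CPM. The lowest injured library was 55.8 times the highest non-injured one, the widest such gap of the 10 members. Panx3 was picked for its rise in the injured libraries, so a wide gap follows from the choice. The ratio of the means was 398 against sham control and 471 against all non-injured libraries, and since it rests on few counts in the denominator it is imprecise. Its relative Panx1, a widely expressed pannexin, stood at 24.3 ± 16.2 CPM in injured (SD, n = 3) and 22.2 ± 13.6 CPM in sham control (SD, n = 2), and the uninjured library at 0.219 CPM, so its groups overlapped. Panx2 had counts in sham 1 alone (1.05 CPM).

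**Figure D1:**
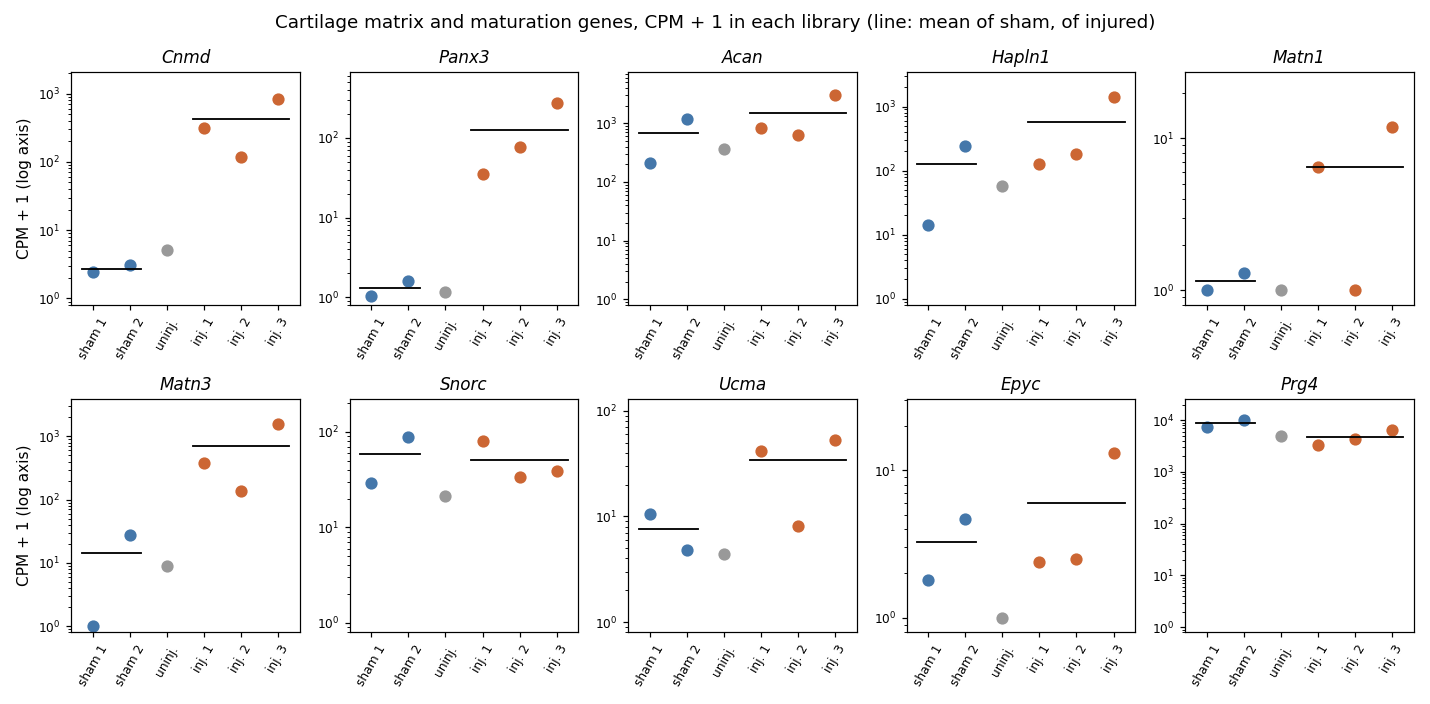
CPM plus 1 (log axis) of the 10 genes in each library, with sham control in blue, uninjured in grey and injured in orange, and lines at the means of the sham and injured libraries. All injured libraries lie above all others for Cnmd, Panx3 and Matn3, and injured 3 is the highest library for 8 of the 10 genes.

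The matrilins are adaptor proteins of the matrix, of which Matn1 and Matn3 are largely confined to cartilage. Matn3 had 0 counts in sham 1, which allows a level of up to 0.0811 CPM by counting error, and stood at 27.0 CPM in sham 2 and 7.84 CPM in the uninjured library. In injured 1, 2 and 3 it stood at 386, 135 and 1558 CPM. The injured libraries thus lay above all 3 others, the lowest at 5.02 times the highest non-injured one. The log2 fold change was 5.68 ± 2.45 (SE) against sham control (edgeR unadjusted p = 0.0541, adjusted p = 0.865) and 5.89 ± 2.00 (SE) against all non-injured libraries (unadjusted p = 0.0207, adjusted p = 0.546), and Matn3 did not pass in either comparison. Matn1 had 0 counts in sham 1, in the uninjured library and in injured 2, and stood at 0.304, 5.52 and 10.98 CPM in sham 2, injured 1 and injured 3. Its presence was therefore a matter of single libraries, and the log2 fold change of 5.15 ± 3.42 (SE) against sham control had edgeR adjusted p = 0.865. The more widely expressed Matn2 stood at 277, 274 and 347 CPM in injured libraries and at 205, 302 and 154 CPM in sham 1, sham 2 and the uninjured library. Matn4 stood at 72.2, 35.2 and 22.2 CPM in the non-injured libraries and at 61.0, 17.5 and 155 CPM in the injured ones, again overlapping.

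Acan encodes aggrecan and Hapln1 the link protein that ties it to hyaluronan. Acan stood at 207, 1171 and 361 CPM in sham 1, sham 2 and the uninjured library and at 832, 620 and 2998 CPM in injured 1, 2 and 3. Sham 2 lay above injured 1 and 2, so the groups overlapped. The log2 fold change was 1.11 ± 0.97 (SE) against sham control (edgeR adjusted p = 0.884). Hapln1 had the same arrangement, with 13.1, 240.01 and 55.9 CPM in the non-injured libraries and 126, 179 and 1391 CPM in the injured ones, and differed from sham control by 2.16 ± 1.47 log2 units (SE; edgeR adjusted p = 0.865). Both values rested on injured 3 and on sham 2: without injured 3 they were 0.07 for Acan and 0.27 for Hapln1, and without sham 2 they were 2.84 and 5.43. Versican (Vcan), the hyaluronan-binding proteoglycan of soft connective tissue, stood at 284 ± 86.3 CPM in injured (SD, n = 3) and 201 ± 177 CPM in sham control (SD, n = 2). Brevican (Bcan), better known from brain, reached 15.7, 0.380 and 7.75 CPM in the injured libraries and had counts in sham 2 alone among the others (0.828 CPM). Hapln4, a link protein gene of brain, had 0 counts in both sham libraries, 6.74 CPM in the uninjured library and 0.362, 0.0165 and 11.1 CPM in injured 1, 2 and 3. Over 13 relatives of the members' families, 10 could be tested against sham control, 7 of them with a log2 fold change above 0 (all genes 53.7%); by edgeR 0 passed, and DESeq2 called Hapln4 (all genes 2.2%).

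Snorc is a small transmembrane proteoglycan of chondrocytes, Epyc a small leucine-rich proteoglycan of growth cartilage, and Ucma a secreted Gla protein of resting and early proliferating chondrocytes. Snorc stood at 28.5, 88.1 and 20.5 CPM in sham 1, sham 2 and the uninjured library and at 79.6, 33.0 and 38.0 CPM in injured 1, 2 and 3. Unlike most of the members it was highest in a sham library. Its log2 fold change was -0.22 ± 0.64 (SE) against sham control and 0.13 ± 0.64 (SE) against all non-injured libraries, and the sign changed with single libraries left out. Epyc stood at 0.811, 3.67 and 0 CPM in the non-injured libraries and at 1.40, 1.52 and 12.1 CPM in the injured ones, a log2 fold change of 1.16 ± 1.78 (SE) against sham control. Without injured 3 it was -0.62, so the higher mean came from that library. Ucma stood at 9.57, 3.78 and 3.38 CPM in the non-injured libraries and at 40.8, 7.20 and 51.7 CPM in injured 1, 2 and 3. Injured 2 alone lay within the range of the non-injured libraries. The log2 fold change of Ucma was 2.32 ± 1.00 (SE) against sham control (edgeR adjusted p = 0.865) and 2.57 ± 0.85 (SE) against all non-injured libraries (edgeR unadjusted p = 0.0186, adjusted p = 0.532).

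Prg4 encodes lubricin, the lubricating glycoprotein of synovial and tendon surfaces, and was the most abundant member in every library. It stood at 7395 and 10195 CPM in sham 1 and 2, at 4838 CPM in the uninjured library and at 3273, 4340.4 and 6393 CPM in injured 1, 2 and 3. All injured libraries lay below both sham libraries, whereas the uninjured library lay among them. The log2 fold change was -0.91 ± 0.61 (SE) against sham control (edgeR adjusted p = 0.865) and -0.68 ± 0.53 (SE) against all non-injured libraries (edgeR adjusted p = 0.887). Counted over the members, Prg4 made up 96.6%, 86.9% and 91.4% of their summed CPM in the non-injured libraries and 64.3%, 78.8% and 47.2% in injured 1, 2 and 3. This share also depends on the other members, among them Cnmd and Panx3, picked for their rise. Without Prg4 the sum was 260, 1537 and 453 CPM in the non-injured libraries. In injured 1, 2 and 3 that sum was 1816, 1170 and 7162 CPM. The other synovial lining genes on the list, Tspan15, Htra4, Has1, Cd55 and Clic5, had counts in every library, and the groups overlapped for all 5. Htra4 stood at 508, 130 and 285 CPM in the non-injured and 127, 87.6 and 184 CPM in the injured libraries, and Clic5 at 118, 23.3 and 19.8 CPM against 33.4, 65.8 and 65.9 CPM.

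Of the 8 genes other than Cnmd and Panx3, 6 had a log2 fold change above 0 against sham control, where 53.7% of 16752 genes tested did, and 7 against all non-injured libraries, where 50.1% of 14110 did. Their median was 1.66 against 0.09 over all genes in the first comparison, and 2.09 against 0.00 in the second. Without injured 3 the medians of the 8 were 0.17 and 0.43, and in the first comparison they were 0.84 without sham 1 and 2.73 without sham 2. For 3 members (Cnmd, Panx3 and Matn3) every injured library exceeded both sham libraries, the share of all genes being 11.9%, and for 1 (Prg4) every one was below both, the share of all genes being 9.12%. Against all 3 non-injured libraries they lay wholly above for the same 3 (all genes 9.23%) and wholly below for 0 (7.07%). Cnmd and Panx3 were picked for this, and the other members, Matn3 and Prg4 among them, were listed with earlier results of these data known. Among the other 8 members, 0 passed edgeR's adjusted threshold of 0.05 in either comparison, as did 0% of all genes. DESeq2 also called 0 of these 8, where it called 2.2% and 2.49% of all genes. At an unadjusted edgeR p under 0.05 there were 0 of the 8 against sham control (all genes 2.44% higher and 2.2% lower), and 2 (Matn3 and Ucma, both higher) against all non-injured libraries, where 3.71% of all genes were higher and 3.72% lower by that rule.

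**Figure D2:**
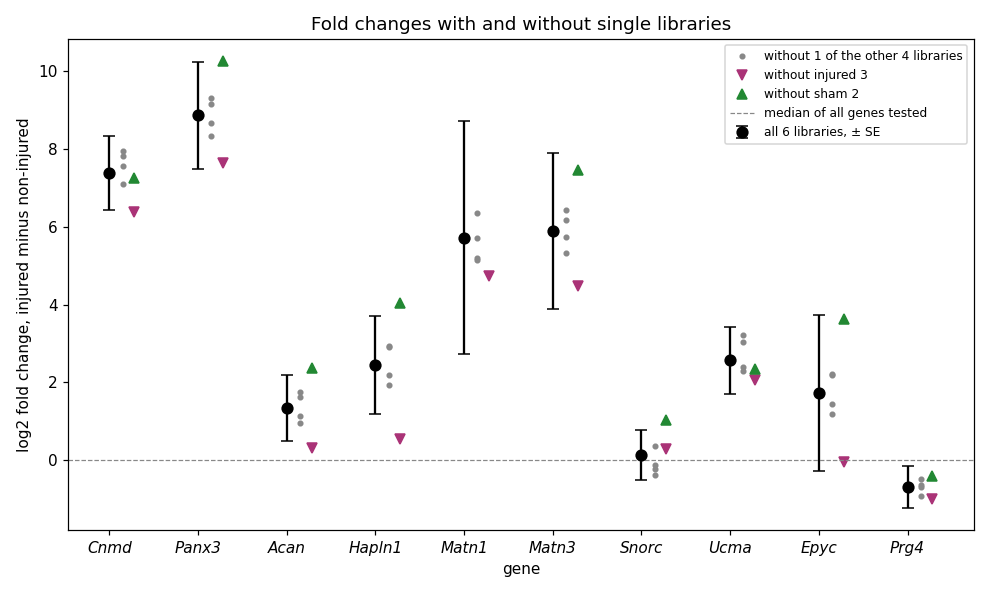
Log2 fold change of each gene, injured minus all non-injured libraries, with its standard error (black), and the same value with single libraries left out. Leaving out injured 3 (purple) brings Acan to 0.31, Hapln1 to 0.56 and Epyc to -0.04, with Cnmd at 6.37 and Panx3 at 7.65. Cnmd and Panx3 were picked for their rise in the injured libraries, so their high values here are no test. For Matn1 without sham 2 (green) no value is drawn because no count is left in the non-injured group.

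The libraries differed among themselves as a pattern over the members. Injured 3 was the highest injured library for 9 members and sham 2 the highest non-injured library for 8. Both are the libraries poorest in neutrophil and erythroid markers of their groups, and the part of cell composition in these levels was not tested. Set against each other, injured 3 had 2.56 times the level of sham 2 for Acan, 5.80 times for Hapln1, 57.8 times for Matn3, 13.7 times for Ucma and 3.30 times for Epyc, but 0.431 times for Snorc and 0.627 times for Prg4. Between injured 1 and sham 1, both rich in blood markers, the ratio was 4.02 for Acan, 9.58 for Hapln1, 4.26 for Ucma, 1.73 for Epyc, 2.79 for Snorc and 0.443 for Prg4. Each pair is 1 library against 1 and carries no test. In both, Acan, Hapln1, Ucma and Epyc were higher and Prg4 lower in the injured library, while Snorc went opposite ways. Cnmd and Panx3 were picked for their rise, so only the other 8 members are counted here. Without sham 2, 5 of the 8 lay wholly above the non-injured libraries: Matn3, Acan, Hapln1, Snorc and Epyc (all genes 15.3%). Without injured 2 there were 3, Matn3, Matn1 and Ucma (all genes 12.2%). There were 2 without sham 1, Matn3 and Ucma (all genes 16.3%). Without the uninjured library, injured 1 or injured 3 there was 1, Matn3 (all genes 12.9%, 15.4% and 14.3%). Leaving a library out also loosens the rule, as the shares of all genes show.

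A level per length of transcript allows the genes to be ranked. On CPM per kilobase of merged exons, the mean over non-injured libraries was 1747 for Prg4, 77.6 for Acan, 63.3 for Snorc, 17.5 for Hapln1 and 6.31 for Ucma. Below these came Matn3 at 3.85, Cnmd at 1.36, Epyc at 0.584, Panx3 at 0.0781 and Matn1 at 0.0506. Neighbours in this order such as Acan and Snorc overlapped library by library. Over the injured libraries the order was Prg4 at 1091, Matn3 at 230.02, Cnmd at 228, Acan at 199, Hapln1 at 95.8, Snorc at 69.6, Ucma at 37.6, Panx3 at 36.8, Matn1 at 2.75 and Epyc at 1.96. The injured means lean on injured 3, so the ranks were also read library by library. Cnmd, picked for its rise, ranked 6, 8 and 7 in the non-injured libraries and 2, 3 and 3 in the injured ones, which restates that choice. Matn3 ranked 5 in sham 2 and 6 in the uninjured library, with no count in sham 1, and 3, 5 and 2 in the injured libraries, so its ranks met. Snorc ranked 2, 3 and 3 against 5, 4 and 8. Its own level per kilobase overlapped, at 39.5, 122 and 28.4 in the non-injured and 110, 45.7 and 52.7 in the injured libraries. The picked Cnmd ranked below Snorc in each non-injured library and above it in each injured one, so the ranks of Snorc depend partly on that choice.

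Ratios within a library do not depend on its scaling. With the level of Acan per length set to 100, Matn3 stood at 0, 5.70 and 5.38 in sham 1, sham 2 and the uninjured library and at 115, 54.1 and 129 in injured 1, 2 and 3. Cnmd stood at 2.76, 0.707 and 4.59 in the non-injured and at 152, 77.6 and 113 in the injured libraries. Panx3 stood at most at 0.113 in the former and between 8.87 and 26.5 in the latter. Prg4 ran the other way, at 6242, 1519 and 2340 in the non-injured and 687, 1223 and 372 in the injured libraries. These 4 genes, of which Cnmd and Panx3 were picked for their rise, separated the groups relative to aggrecan, whereas Hapln1 (8.04 to 25.9 against 19.1 to 58.7), Snorc (58.8 to 143 against 13.1 to 99.0) and Ucma (2.73 to 39.1 against 9.82 to 41.4) overlapped. The share of all genes that separate on this scale was not computed, so the count of 4 has no background. In CPM, Prg4 overlapped between injured and all non-injured libraries. The spread of Cnmd among injured libraries was narrower on this scale, since the library with the most Cnmd also had the most Acan.

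**Figure D3:**
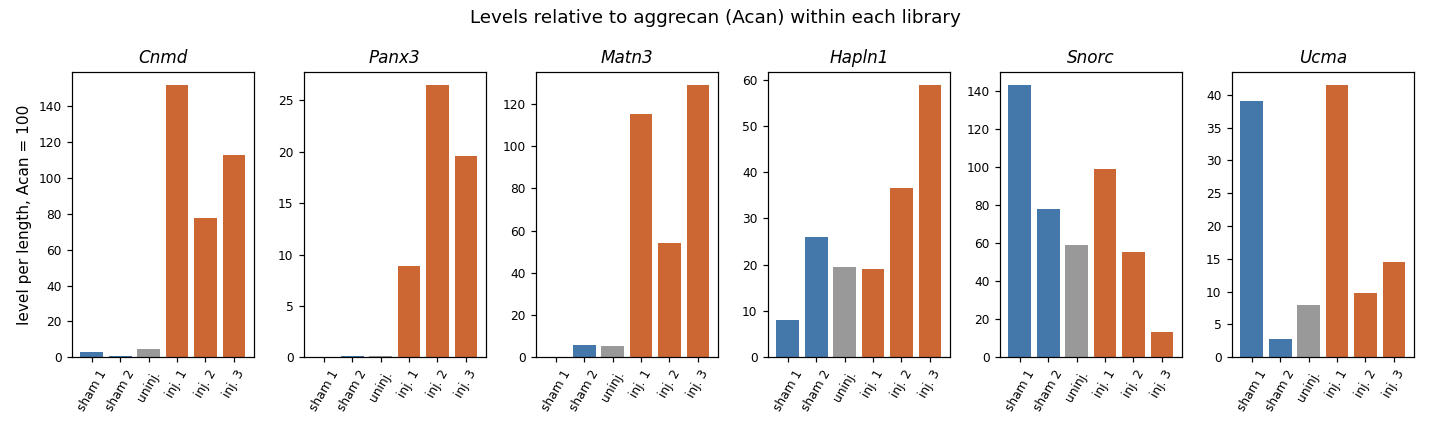
Level per length of 6 genes in each library relative to Acan in the same library (Acan = 100), one bar per library, with sham control in blue, uninjured in grey and injured in orange. The bars of Cnmd, Panx3 and Matn3 reach 4.59, 0.113 and 5.70 at most in non-injured libraries and at least 77.6, 8.87 and 54.1 in injured ones, while Hapln1, Snorc and Ucma overlap. Cnmd and Panx3 were picked for their rise, and the share of all genes separating on this scale was not computed.

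The genes whose course over the 6 libraries was most like that of Cnmd were Ihh, Panx3, Col9a1, Pbk and Matn3, by a root mean square difference of 0.74 to 1.33 in log2(CPM + 1) centred on each gene's mean. The list for Panx3 was Cnmd, Pbk, Col9a1, Ihh and Kif23 (0.84 to 1.24). Of these, Ihh is Indian hedgehog, Col9a1 a chain of collagen IX, and Pbk and Kif23 are a kinase and a motor of dividing cells. The 6 libraries share their groups and depths, so this is a description of likeness only. Cnmd and Panx3 were both picked for their rise in the injured libraries, so their likeness to each other follows from the choice. For the same reason, the other genes nearest to them are bound to be low in non-injured and high in injured libraries. Their names therefore say nothing further about a shared course. Among the 16752 genes, Hapln1 ranked 166 in likeness to Cnmd, Acan 512, Snorc 6774 and Prg4 12952.

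The cartilage collagens that surround these proteins had the arrangement of Matn3 for collagen IX only. Of 8 cartilage collagen genes, 7 had a log2 fold change above 0 against sham control (all genes 53.7%), and 3 lay wholly above both sham libraries and above all 3 non-injured libraries (all genes 11.9% and 9.23%). These 3 are the collagen IX chains. Col9a1 had levels of 5.08, 12.5 and 9.15 CPM in the 3 non-injured libraries (in the order sham 1, sham 2, uninjured) and of 257, 76.0 and 1030.2 CPM in the injured ones. Col9a3 stood at 753, 307 and 2595 CPM in injured libraries and at 17.1, 123 and 0 CPM in the others, and Col9a2 at 365, 209.8 and 1216 CPM against 20.2, 123 and 0.974 CPM. The edgeR adjusted p was 0.865 for each of them against sham control, and 0 of the 8 passed, while DESeq2 called Col9a1 and Col9a3 (all genes 2.2%). Against all non-injured libraries DESeq2 called 1 of the 8, Col9a1 (all genes 2.49%). Col9a3 did not pass there (DESeq2 adjusted p = 0.457). Col2a1, the main fibril collagen of cartilage, stood at 1082, 17121 and 495 CPM in the non-injured libraries and at 12394, 6068 and 40954 CPM in the injured ones, and overlapped as Acan did. Col10a1, the collagen of hypertrophic cartilage, stood at 5.22, 101 and 21.4 CPM against 27.4, 23.7 and 77.8 CPM, with a log2 fold change of -0.31 ± 1.10 (SE) against sham control.

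Other matrix genes of cartilage and fibrocartilage lay on both sides. Of 25 further matrix and glycosaminoglycan synthesis genes, 11 had a log2 fold change above 0 (all genes 53.7%) and 14 below against sham control. Of these, 8 lay wholly below the sham libraries (all genes 9.12%) and 2 wholly above (all genes 11.9%). The 2 are Mia, a small secreted cartilage protein, and Ugdh, the enzyme that makes the glucuronate precursor of glycosaminoglycans. Mia stood at 2.81, 4.67 and 0 CPM in sham 1, sham 2 and the uninjured library and at 20.5, 9.76 and 19.3 CPM in injured 1, 2 and 3. Ugdh stood at 156, 353 and 342 CPM against 460.1, 483 and 732 CPM. Chondroadherin (Chad), a collagen-binding leucine-rich protein, stood at 4386, 16867 and 16180.2 CPM in sham 1, sham 2 and the uninjured library and at 223, 429 and 595 CPM in injured libraries. Cilp, cartilage intermediate layer protein, stood at 2230 ± 279 CPM in sham control (SD, n = 2) and 227 ± 79.7 CPM in injured (SD, n = 3), and its relative Cilp2 at 694 ± 269 and 44.3 ± 21.7 CPM. Vitrin (Vit), a matrix protein, stood at 43.9, 70.2 and 119 CPM in the non-injured and 5.05, 2.23 and 8.56 CPM in the injured libraries. By edgeR 0 of the 25 passed (adjusted p = 0.525 for Cilp and Cilp2, 0.817 for Chad), while DESeq2 called 5 lower and 0 higher (all genes, either direction, 2.2%). Tenomodulin (Tnmd), the closest relative of Cnmd and a marker of tendon, stood at 48.5, 282 and 174 CPM in the non-injured and at 245, 118 and 152 CPM in the injured libraries, a log2 fold change of 0.06 ± 0.73 (SE).

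**Figure D4:**
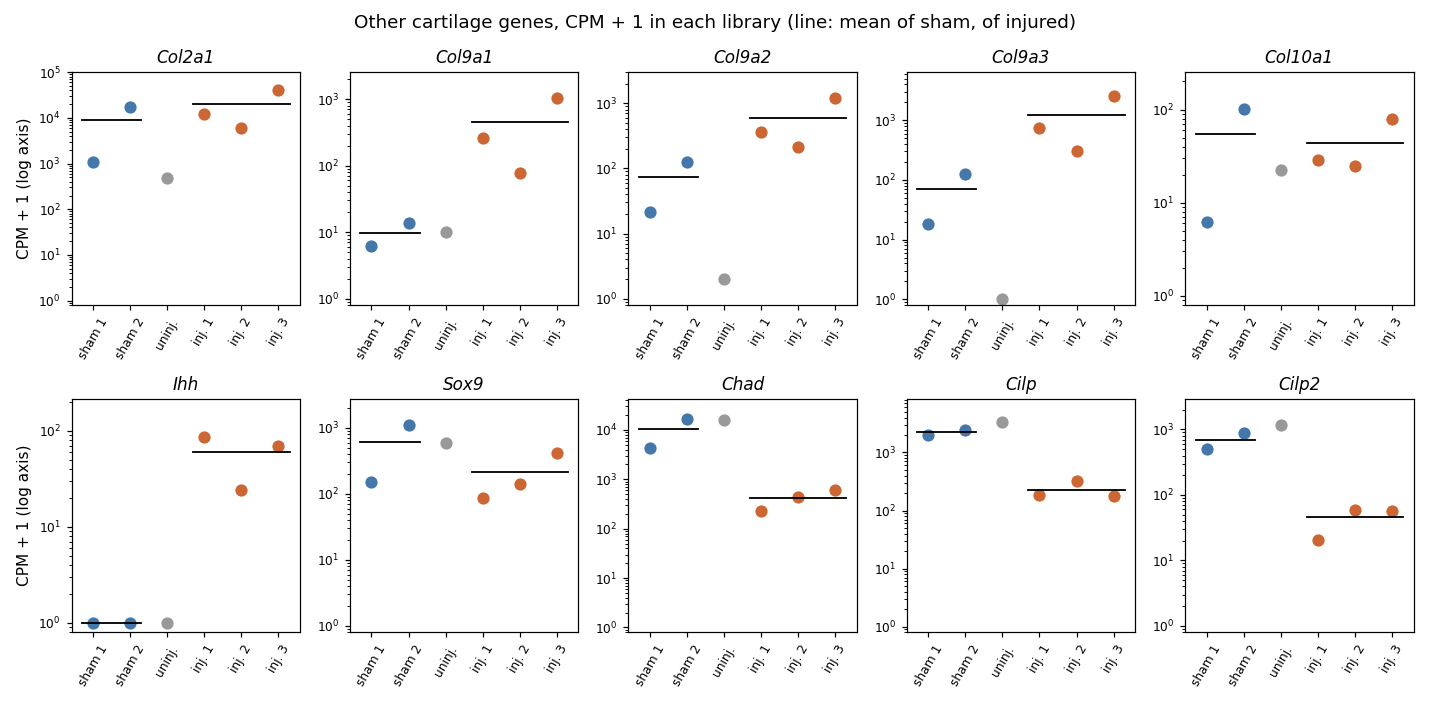
CPM plus 1 (log axis) of 10 other cartilage genes in each library, with sham control in blue, uninjured in grey and injured in orange, and lines at the means of the sham and injured libraries. The collagen IX chains and Ihh lie higher, and Chad, Cilp and Cilp2 lower, in all injured libraries than in any other, while Col2a1, Col10a1 and Sox9 overlap.

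Among the regulators of chondrocyte identity, 0 of 18 passed by edgeR (all genes 0%) or DESeq2 (2.2%), and 11 had a log2 fold change above 0 against sham control, where 53.7% of all genes did. Sox9, the master transcription factor of cartilage, stood at 150, 1095 and 588 CPM in sham 1, sham 2 and the uninjured library and at 84.3, 140.1 and 423 CPM in injured 1, 2 and 3, so it did not have the arrangement of Cnmd or Matn3. Its log2 fold change was -1.53 ± 0.94 (SE; edgeR adjusted p = 0.865). The growth plate receptor gene Fgfr3 stood at 11.1, 65.5 and 38.0 CPM in the non-injured and at 114, 63.6 and 356 CPM in the injured libraries. The ligand gene Bmp2 stood at 66.8, 605 and 295 CPM against 17.4, 78.4 and 134 CPM. In the list of hypertrophy genes, 5 of 15 had a log2 fold change above 0 against sham control (all genes 53.7%), and 0 passed by edgeR, while DESeq2 called Ihh (all genes 2.2%). Of the 15, 1 (Ihh) lay wholly above the sham libraries (all genes 11.9%) and 1 (Gli1) wholly below (all genes 9.12%). Gli1 stood at 9.78, 7.43 and 32.6 CPM in sham 1, sham 2 and the uninjured library. In injured 1, 2 and 3 it stood at 0, 0.0330 and 4.88 CPM. Ihh had 0 counts in all 3 non-injured libraries and 85.8, 23.1 and 67.9 CPM in injured 1, 2 and 3, at least 1439-fold above sham control when 3 counts are allowed to the sham libraries together. The parathyroid hormone receptor gene Pth1r stood at 123, 364 and 319 CPM in the non-injured and at 346, 223 and 1011 CPM in the injured libraries, and osteopontin (Spp1) at 2524 ± 1775 CPM in injured (SD, n = 3) and 9866 ± 9807 CPM in sham control (SD, n = 2).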

How the data were processed

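The deposited table holds whole-number counts per gene symbol in 6 libraries. The tools listed per the submitters' processing notes are DESeq, DESeq2 1.22.2 and Salmon 0.12.0, and the builds are mm9 and GRCm38.p6, all without roles; the sources used here do not say how estimates were summed and rounded. Scaling before deposit cannot be told from the values. Reads carry no molecular identifiers, so floors cover counting error only.

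Genes were filtered with filterByExpr (minimum count 10), scaled by TMM and tested with edgeR 4.0.16 (R 4.3.3), quasi-likelihood F test, Benjamini-Hochberg over all genes, threshold 0.05. Injured against sham control used all 6 libraries as 3 groups (3 residual degrees of freedom); injured against all non-injured used 3 against 3 (4 degrees). Standard errors come from the F statistic. DESeq2 1.42.0, limma-voom 3.58.1, other scalings, no filter, single libraries left out and a replicate block were alternatives. The fits were also run on simulated counts with less spread between libraries than here, which is no measure of their power in these data. Lengths are merged GENCODE vM21 exons; sequences are RefSeq's. A gene without counts in a group is given against 3 counts.

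The members and the lists were chosen with earlier results of these data known. Named beside the members are up to 4 genes per list with the smallest p, 9 fixed genes, and the 5 nearest to Cnmd and to Panx3; other genes, Mia and Ugdh among them, were named after their values were seen. Macrophage, endothelial, Schwann, muscle and osteoclast markers took at most 0.0813%, 0.113%, 0.328%, 0.00965% and 0.0710% of counts in any library.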

Additional observations from a re-analysis of the deposited data

How the results depend on the processing

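Among the 8 members with a test, 0 were called under any alternative run in either comparison. Over all genes the count of 0 against sham control became 3 without a low-count filter, 369 by DESeq2 and 1 by limma-voom, and the count of 0 against all non-injured became 5, 345 and 7; it was 0 with each single library left out. Cnmd, Panx3, Acan, Hapln1, Ucma and Prg4 kept their direction under every alternative run, as did Matn1 and Matn3 wherever they had counts on both sides. With single libraries left out, the log2 fold change of Snorc ran from -0.81 to 0.82 against sham control (0.82 without sham 2, 0.01 without injured 2) and from -0.37 to 1.03 against all non-injured, where it was -0.11 without sham 1, -0.22 without the uninjured library and -0.37 without injured 1. That of Epyc ran from -0.62 to 2.63 and from -0.037 to 3.62, the lower ends without injured 3. The cause was not tested. With the replicate block over replicates 1 and 2, Snorc stood at 0.0081, Epyc at -0.27 and 0 genes were called; the labels do not say that the numbers pair libraries, and deviations correlated at 0.35 (number 1) and 0.01 (number 2) across genes. Against sham control, unscaled library sizes took the all-gene median from 0.09 to 0.23 log2 units and the median of the 8 members other than Cnmd and Panx3 from 1.66 to 1.83. With the replicate block that median was 0.96. With single libraries left out it ran from 0.17 to 2.73, and from 0.43 to 3.00 against all non-injured, the lower ends without injured 3 and the upper without sham 2, with members lacking counts at their bound. These medians and the counts of members wholly above with libraries left out were chosen after seeing the data. Without sham 2 no count remained and no fold is given for Matn1 in either comparison and for Matn3 against sham control. With 2 or 3 libraries a group and few counts of Panx3, Matn1 and Epyc, sampling of rare transcripts limits every value here.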

Other observations

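Enzymes and inhibitors that turn over aggrecan and its partners were read as a further list of 12 genes. Against sham control, 4 had a log2 fold change above 0 (all genes 53.7%) and 8 below, 3 lay wholly below both sham libraries (all genes 9.12%), and 0 passed by edgeR (all genes 0%) or DESeq2 (2.2%). Against all non-injured libraries 4 were again above 0 (all genes 50.1%) and 8 below, and DESeq2 called 2 lower, Htra1 and Timp3 (all genes, either direction, 2.49%). Htra1, a serine protease of cartilage matrix, stood at 567, 822 and 842 CPM in sham 1, sham 2 and the uninjured library and at 293, 279.6 and 396 CPM in injured 1, 2 and 3. Timp3, the matrix-bound inhibitor of aggrecanases, stood at 405, 1114 and 2125 CPM in the non-injured and at 120, 221 and 366 CPM in the injured libraries. The aggrecanase-related protease gene Adamts15 stood at 31.2, 30.4 and 21.4 CPM against 8.49, 1.62 and 12.5 CPM. Their edgeR adjusted p against sham control was 0.865 each. Mmp3, stromelysin, overlapped between the groups, with 365, 959 and 26.1 CPM in sham 1, sham 2 and the uninjured library and 49.7, 511 and 211 CPM in injured 1, 2 and 3.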
